A study of Mus musculus with 24 samples.

Results

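The respiratory chain of mouse liver mitochondria was followed through the transcripts of its subunits, which come from the nuclear and the mitochondrial genome. Members were all gene symbols of both deposited count tables that name a subunit of complexes I to V (Nduf, Sdh, Uqcr, Cox4 to Cox8 and Atp5 symbols) or 1 of the 13 proteins encoded by mitochondrial DNA, with a mean level of at least 1 CPM (counts scaled to the size of the library). Of the 46093 symbols present in both, 106 matched by name and 94 passed the level: 13 mitochondrially encoded and 81 nuclear-encoded, the latter with 36 symbols for complex I, 4 for complex II, 8 for complex III, 12 for complex IV and 21 for complex V. Of the 81, 5 are pseudogenes by name, and Atp5sl and Atp5s match by symbol but are known as assembly-related factors and not as subunits. Complexes were assigned by symbol alone, which places Ndufa4 and Ndufa4l2 in complex I by name only.

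The respiratory chain sits in the inner mitochondrial membrane. Complexes I and II pass electrons from NADH and succinate to ubiquinone, complex III hands them to cytochrome c, complex IV reduces oxygen, and complex V (ATP synthase) uses the proton gradient that complexes I, III and IV build up. Complexes I, III, IV and V are mosaics of proteins from both genomes, while complex II is wholly nuclear. The mitochondrial genes are transcribed as long polycistronic RNAs by a dedicated polymerase, whereas the nuclear genes are transcribed one by one, many of them under NRF1, NRF2/GABP and the PGC-1 coactivators. In liver the chain oxidises the electrons released by fatty acid oxidation.

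The libraries were made from liver total RNA of C57BL/6 mice, 3 for each of 8 groups that cross sex, genotype and diet. Genotypes are wild type (WT) and a knockout of 3 cytochrome P450 genes, Cyp2b9, Cyp2b10 and Cyp2b13 (Cyp2b-null), and diets are normal chow (ND) and high-fat diet with 60% fat (HFD), given for 10 weeks. The series asks what Cyp2b enzymes do in obesity caused by such a diet. Male RNA was purified with RNeasy Plus Universal and converted to libraries with TruSeq Total RNA, female RNA with Trizol and NEB Next Ultra RNA, so that sex, extraction and library kit cannot be told apart. Ages, whether animals were pooled, and whether the 3 libraries of a group are 3 animals are not given in the labels.

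Several libraries stood apart before any comparison. Cyp2b9 had 788 to 1245 counts in the 6 female WT libraries and 0 to 17 in the 6 female Cyp2b-null ones, whereas male WT ND libraries had 1, 2 and 4 counts and male Cyp2b-null ND libraries 24, 29 and 59. Cyp2b13 had 23 to 33 counts in the former and 7 to 89 in the latter, and Cyp2b10 had 30 to 97 against 4 to 15 on ND and 7 to 15 against 5 to 26 on HFD. On HFD Cyp2b9 had 354, 48 and 797 counts in male WT against 36, 85 and 19. In males Cyp2b9 on ND thus went against the label, Cyp2b10 on ND went with it, and the others overlapped, so those groups are called males labelled Cyp2b-null. For 6 female libraries the labels give one genotype in the title and the other in the characteristics, and groups follow the title. Totals were 8.28 M to 20.2 M counts in males and 2.01 M to 2.66 M in females. Mitochondrial messages took 32.0% of all counts in labelled-null ND 1, against 3.45 to 7.76% in the other 11 male libraries, and 14% in female WT ND 1. In females the first principal component over 11739 genes that are no members held 29% of the variance and set 5 libraries against the other 7: WT ND 1 with WT HFD 1, libraries 2 and 3 of Cyp2b-null ND, and library 2 of Cyp2b-null HFD. The 8 hepatocyte markers were detected in every library, and the summed muscle markers reached 150.9 CPM in female WT HFD 3 against 0.386 to 3.33 CPM in the other females.

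The first property of the mitochondrial members to be shown is a sequence one, because it bears on how far their counts can be read. Mouse chromosome 1 carries a copy of part of the mitochondrial genome (GRCm38, GENCODE M21, chr1:24611535-24616197, minus strand), which holds 7 annotated copies. The copies of COX2, ATP6, COX3 and ND4L have 0 differences over 681, 678, 783 and 294 aligned bases, that of ND3 has 1 difference over 345, and those of COX1 and ND4 cover 31.84% and 63.57% of the gene. The first 120 bases of ND3 (complex I) and of COX2 (complex IV, the subunit that takes electrons from cytochrome c) are shown beside their copies, 5′ to 3′ on the coding strand. Capitals mark the base at which ND3 and its copy differ, and COX2 and its copy have no such base.
ND3, chrM:9459-9578, plus strand: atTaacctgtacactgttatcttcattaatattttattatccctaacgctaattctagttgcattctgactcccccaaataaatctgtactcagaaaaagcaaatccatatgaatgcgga
Gm28438, chr1:24613000-24613119, minus strand: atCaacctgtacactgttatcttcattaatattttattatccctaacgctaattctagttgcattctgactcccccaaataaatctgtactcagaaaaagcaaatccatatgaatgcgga
COX2, chrM:7013-7132, plus strand: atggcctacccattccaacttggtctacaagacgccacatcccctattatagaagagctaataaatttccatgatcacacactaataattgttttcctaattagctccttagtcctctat
Gm28661, chr1:24615446-24615565, minus strand: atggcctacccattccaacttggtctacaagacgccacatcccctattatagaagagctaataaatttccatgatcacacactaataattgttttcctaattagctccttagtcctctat

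Per length, the 13 mitochondrial genes fell into a high and a low set, and the low set holds the copied stretch and, in males, ND6. The values per kb in this paragraph are scaled by library totals alone, without the TMM factors used for other levels. The medians over 12 libraries were 13784 CPM per kb in males and 10426 in females for COX1, the catalytic core of complex IV, and 10631 and 9615 for CYTB, the only mitochondrial subunit of complex III. ND1, ND2, ND4 and ND5, core membrane subunits of complex I, had medians of 2418 to 6989 CPM per kb. Inside the copied stretch COX2 had 236 and 244 CPM per kb, ATP6 302 and 285, and COX3 245 and 240, although these genes lie on the same primary transcript as COX1 and ND4. ND3 stood at 76.5 and 131 and ND4L at 97.5 and 50.5 CPM per kb. All 6 genes wholly inside the stretch, ATP8 among them, were thus at or below 302 CPM per kb in both sexes. How reads that match both places were treated in the deposited counts is not given in the sources used here, and its part in these levels was not tested. ND6, which lies on the other strand, stood at 74.9 CPM per kb in males and 4061 in females, and ATP8, which overlaps ATP6, at 255 and 33.6. The genome score below is therefore also given for the 7 genes that do not lie wholly inside the stretch; COX1 and ND4 reach into it.

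**Figure D1:**
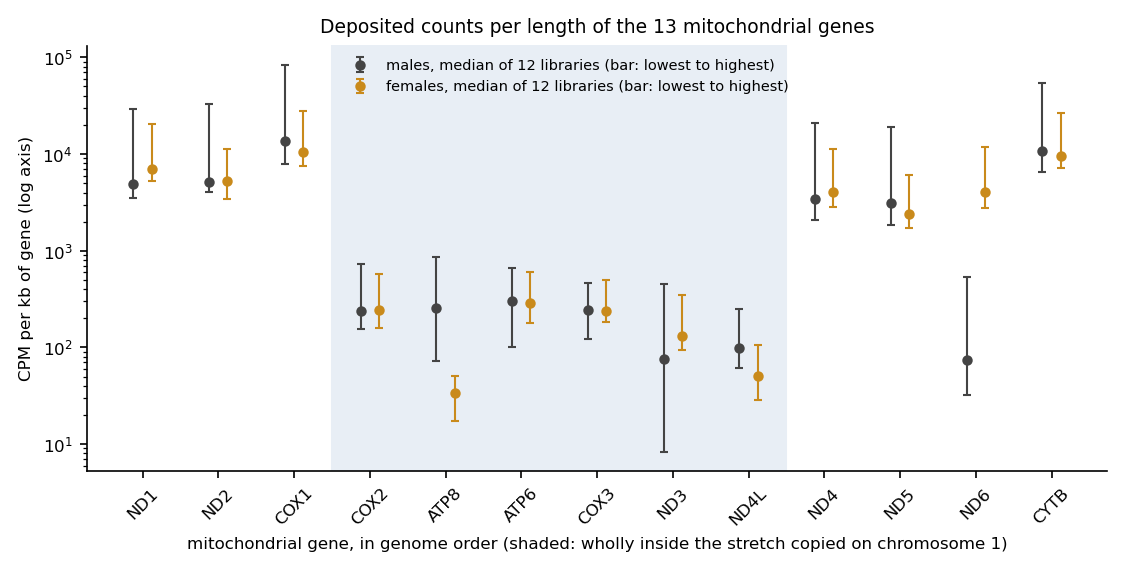
Level of each mitochondrial gene in CPM per kb (log axis), in genome order. Points are the medians of the 12 male or 12 female libraries and bars run from the lowest to the highest library. The 6 shaded genes, which lie wholly inside the stretch copied on chromosome 1, have medians of at most 302 CPM per kb, while those of COX1 and CYTB are 9615 to 13784. ND6 has a median of 74.9 in males and 4061 in females.

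The nuclear-encoded members without pseudogenes had a median of 93.8 CPM per kb of transcript in males (lowest 0.778, highest 549) and 126 in females (2.04 to 749). These levels, unlike the mitochondrial ones above, use TMM factors. Length was that of the longest protein-coding GENCODE transcript, up to 4715 bases for Atp5g1 and 4371 for Ndufb2, and the levels depend on that choice. The male lowest was that of Ndufa7, whose low male counts are described further on. By complex the medians were 68.2 and 102 CPM per kb for complex I, 173 and 133 for complex II, 190 and 373 for complex III, 184 and 255 for complex IV, and 122 and 125 for complex V. RefSeq promoter sequences (GRCm38.p6) were available for 64 of these 76 members. Cores were sought over each whole sequence, which reaches beyond the windows printed below (130 bases before to 30 bases after the start). GCATGCGC, the core of the NRF1 site, occurred on either strand in 9 of the 64 (14.06%), against 3.049% of 27025 genes with such a sequence. CCGGAAG, the core bound by ETS factors such as GABP, occurred in 15 (23.44%, against 9.928% of all), and both occurred in 5 (7.81%, against 0.618%). Of these 5, Cox6a1 lacks the NRF1 core and Atp5l lacks both cores in a window of the printed size. In the windows shown the 2 cores do not overlap each other, and in Atp5k the NRF1 core occurs on both strands and overlaps itself. A match describes letters, not a bound site. The 3 windows below are shown because they hold both cores, in capitals, in genes of complexes II, V and III whose levels are described further on.
Sdhb, iron-sulphur subunit of complex II, chr4:140961141-140961300, plus strand: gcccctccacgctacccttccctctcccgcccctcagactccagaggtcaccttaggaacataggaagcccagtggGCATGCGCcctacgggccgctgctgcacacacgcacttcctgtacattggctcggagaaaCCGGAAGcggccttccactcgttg
Atp5k, subunit e of ATP synthase, chr5:108434370-108434529, minus strand: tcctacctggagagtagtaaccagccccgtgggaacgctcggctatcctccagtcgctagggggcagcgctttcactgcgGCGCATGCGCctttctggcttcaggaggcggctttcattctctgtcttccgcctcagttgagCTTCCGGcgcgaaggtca
Uqcr11, small subunit of complex III, chr10:80406792-80406951, minus strand: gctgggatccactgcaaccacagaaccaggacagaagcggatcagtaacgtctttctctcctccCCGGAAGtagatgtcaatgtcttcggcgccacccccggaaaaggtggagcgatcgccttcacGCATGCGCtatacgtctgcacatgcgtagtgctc

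The 2 genomes were first set against each other in each library as the mean log2 CPM of the 13 mitochondrial and of the 81 nuclear members. In male WT ND libraries the nuclear mean was 6.23, 6.12 and 6.16, and every other male library was lower, at 5.6 to 6.02 in WT HFD, 5.28 to 5.87 in labelled-null ND and 5.56 to 6.03 in labelled-null HFD. The mitochondrial mean was 9.07, 8.49 and 9.03 in male WT ND and overlapped with every other male group. Its highest value was 11.3 in labelled-null ND 1. Mitochondrial minus nuclear, a log2 difference, was 2.85, 2.38 and 2.87 in WT ND, 3.10, 4.44 and 3.31 in WT HFD, 6.01, 3.93 and 2.94 in labelled-null ND and 3.45, 3.89 and 4.23 in labelled-null HFD. The WT ND libraries were thus the lowest of the males, with a mean of 2.70 ± 0.28 (SD, n = 3) against 3.62 ± 0.72 in WT HFD, 4.29 ± 1.57 in labelled-null ND and 3.86 ± 0.39 in labelled-null HFD. The labelled-null ND mean was 3.43 without its library 1. This score over the members is a description and carries no test.

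On the 7 mitochondrial genes that do not lie wholly inside the copied stretch the male pattern was smaller. The labelled-null minus WT difference on ND was 1.59 with 13 genes and 1.43 with 7, and without labelled-null ND 1 it was 0.74 and 0.27. With 7 genes the groups overlapped, because labelled-null ND 3 stood at 5.40 and the lowest WT ND library at 5.44. HFD minus ND in WT was 0.92 with 13 genes and 0.54 with 7, and the groups did not overlap with either.

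Females showed no such order. Their nuclear means were 6.47 to 6.80 in WT ND, 6.41 to 6.92 in WT HFD, 6.53 to 6.78 in Cyp2b-null ND and 6.33 to 6.85 in Cyp2b-null HFD, so all 4 groups overlapped. Mitochondrial minus nuclear was 3.30 ± 0.63 in WT ND, 2.96 ± 0.32 in WT HFD, 2.86 ± 0.40 in Cyp2b-null ND and 2.80 ± 0.18 in Cyp2b-null HFD. WT ND 1 alone was at 4.02, and the other 11 female libraries were between 2.48 and 3.32. In each female group both genome means were higher in the libraries of the smaller side of the first component than in those of the larger side.

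**Figure D2:**
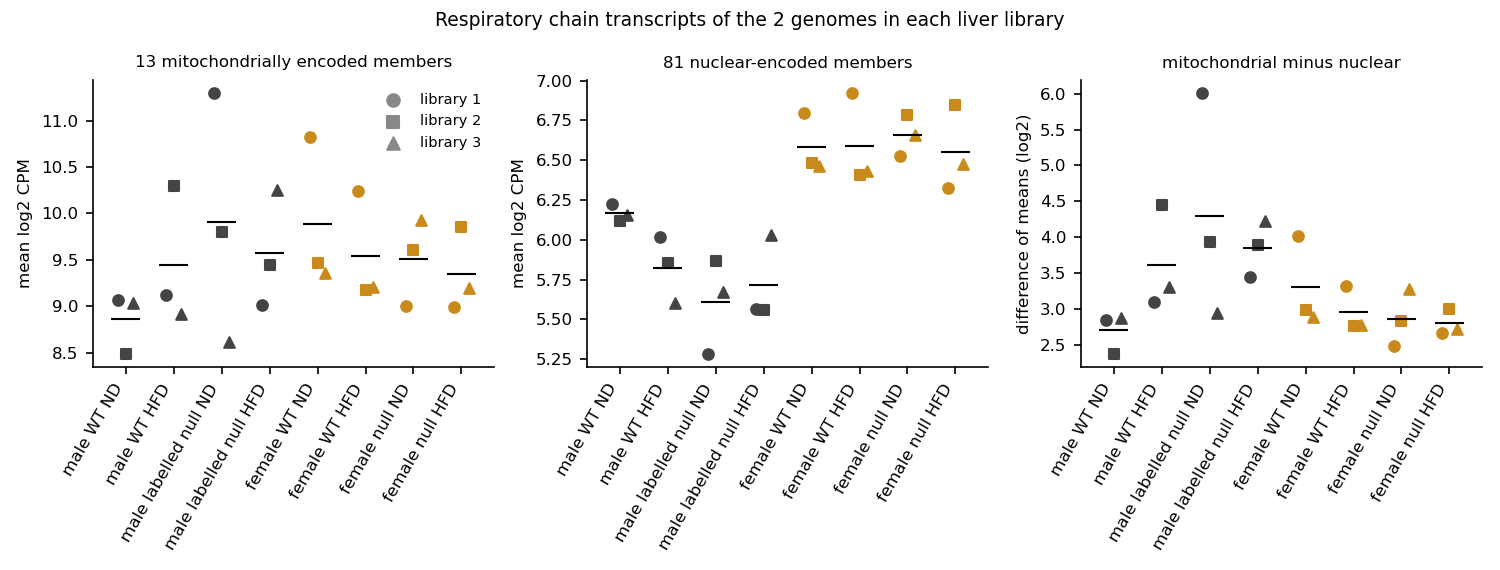
Mean log2 CPM of the 13 mitochondrial members (left), of the 81 nuclear members (middle), and the first minus the second (right, log2), for each library. Symbols give library 1, 2 and 3 of a group and lines the group means; dark is male and orange female. The 3 male WT ND libraries lie at 6.12 to 6.23 in the middle panel, above all other males, and labelled-null ND 1 is the highest in the right panel at 6.01.

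Labelled-null ND 1 differed from the other males in the makeup of the chain and not only in its amount. Against each member's median over the 12 male libraries, 24 of 76 nuclear members were lower by over 1 on the log2 scale in this library and 11 were higher by over 1, and the SD over members was 1.48. In the other 11 male libraries 0 to 2 members were lower by that much, none was higher, and the SD was 0.10 to 0.28. Sdha, the catalytic flavoprotein of complex II, stood at 38.0 CPM in this library and at 464 to 625 CPM in the others. In complex V, Atp5b, the catalytic beta subunit, stood at 158 CPM against 822 to 1259, and Atp5g3, a c-ring gene, at 23.8 against 212 to 393. Cox5a, a nuclear subunit of complex IV, stood at 13.2 CPM against 97.4 to 192, and Ndufa4, which had the lowest deviation (-4.03), at 14.7 against 183 to 347. The other way round, Ndufa4l2, the hypoxia-inducible relative of Ndufa4, stood at 9.90 CPM in this library and at 0.678 to 1.36 in the other males. Summed adipose markers were also highest in it, at 40.01 CPM against 3.27 to 11.67 in the other males, and its summed hepatocyte markers lowest, at 43540 CPM. It was also highest of the males in the summed markers of lymphocytes (14.85 CPM against 0.65 to 3.12), biliary cells (17.39 against 3.6 to 10.21), endothelium (250.7 against 125 to 195) and striated muscle (4.15 against 0.624 to 1.31) and in nuclear-retained RNA (1994 against 399 to 1268), and lowest in those of stellate cells (78.81 against 113 to 254.5). The part of any of these in its levels was not tested.

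**Figure D3:**
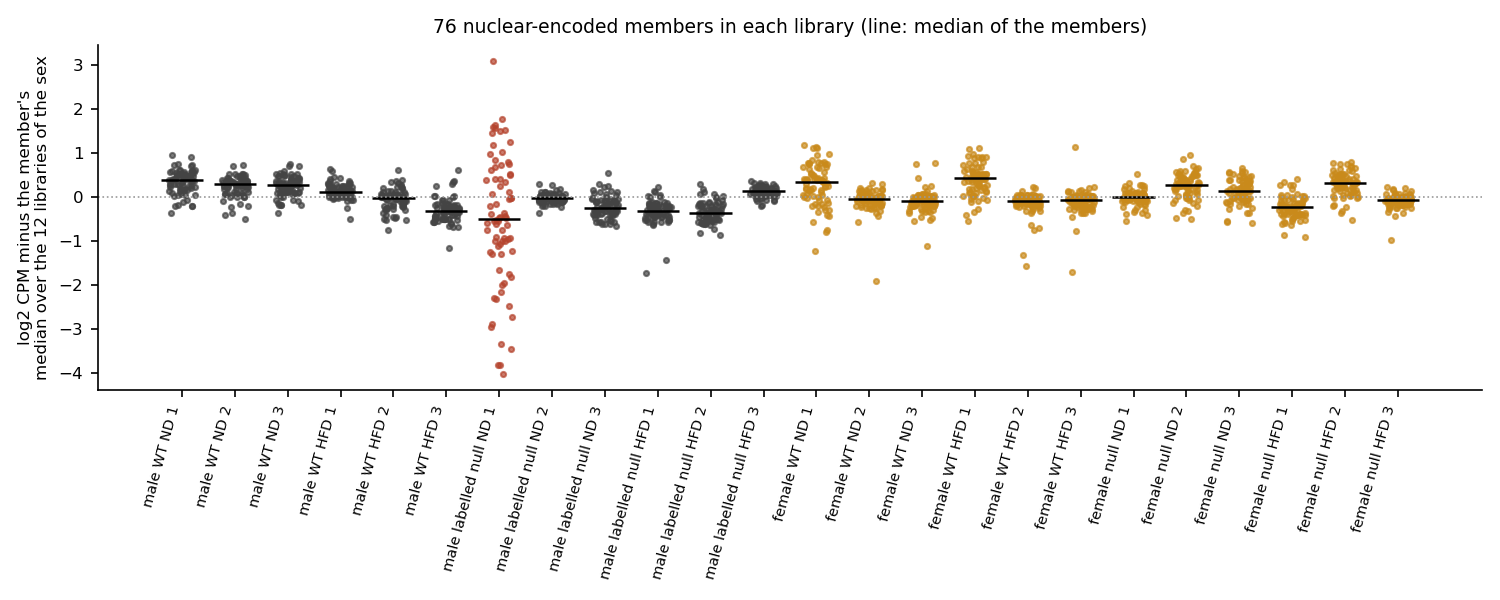
Log2 CPM of each of 76 nuclear-encoded members minus that member's median over the 12 libraries of its sex (vertical axis), for every library; each point is a member and lines mark the median of a library. Labelled-null ND 1 (red) spreads from -4.03 to 3.09, while no member of another male library lies above 1. The 3 male WT ND libraries have the highest male medians, 0.28 to 0.40.

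In males on ND, labelled Cyp2b-null against WT, edgeR's quasi-likelihood test with Benjamini-Hochberg adjustment over all 14873 genes called none of the 92 members tested (percent of all genes called 0.0134). DESeq2 called 3, against 2.88% of the genes to which it gave an adjusted p. At an unadjusted p under 0.05, 5 mitochondrial members were higher and 21 nuclear members were lower, with 2 nuclear higher, which is 28 of 92 against 18.6% of all genes in either direction; 5.84% of all genes were lower and 12.7% higher. The mitochondrial median difference was 1.44 on the log2 scale with 13 of 13 above 0, against 53.7% of all genes. The nuclear median was -0.51 with 66 of 79 below 0, against 46.3%, and the median of all genes was 0.06. Without labelled-null ND 1 the mitochondrial median was 0.20 with 10 of 13 above 0 (52.1% of all genes), and the nuclear median -0.46 with 72 of 79 below 0 (47.9%). The size on the mitochondrial side thus came mostly with 1 library, and that on the nuclear side did not. Without it none of 92 members was called (0.0462% of all genes), and at an unadjusted p under 0.05 there were 39 nuclear members lower and 1 higher and 1 mitochondrial member higher (lower in 7.24% and either way in 17.3% of all genes).

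COX1, the mitochondrial member with the most counts per length, stood at 22293, 19422 and 25163 CPM in male WT ND and at 143367, 27103 and 10842 CPM in labelled-null ND. The labelled-null libraries lay both above and below the WT range, with a log2 difference of 1.44 ± 0.72 (SE; adjusted p = 0.298), and of -0.23 ± 0.39 without labelled-null ND 1. CYTB behaved alike, at 1.18 ± 0.68 with all libraries and -0.40 ± 0.37 without it. ND4 went from 1.36 to -0.47, ND1 from 1.5 to 0.13 and ND5 from 2.07 to 0.33 when that library was left out. For COX1, CYTB and ND4 the direction was therefore that of 1 library.

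ND3, a small membrane subunit of complex I, was the mitochondrial member with the largest difference. Its level was 7.18, 3.03 and 5.21 CPM in male WT ND, 7.68, 168 and 20.7 in WT HFD, 52.0, 81.5 and 21.6 in labelled-null ND and 24.6, 59.9 and 161 in labelled-null HFD. All 3 WT ND libraries were below every other male library, as for 2.51% of all genes, though 7.18 and 7.68 lie close. The groups with high levels spread more than 3-fold between their own libraries. The log2 difference was 3.32 ± 1.05 for labelled-null against WT on ND (adjusted p = 0.213) and 3.31 ± 1.41 (adjusted p = 0.288) without labelled-null ND 1. For HFD against ND in WT it was 3.66 ± 1.06 (adjusted p = 0.506). DESeq2 gave nearly the same estimates and called both, with adjusted p = 0.0179 and 0.0157, where it called 2.88% and 0.519% of all genes. Female ND3 levels were 32.1 to 129 CPM with overlapping groups, and the gene lies in the copied stretch.

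Among the other mitochondrial members ATP8, a membrane subunit of complex V, differed by 1.49 ± 0.67, ND2 by 1.63 ± 0.69 and ATP6 by 0.98 ± 0.54. ATP8 stood at 34.3, 15.6 and 43.0 CPM in WT ND and at 106, 119 and 36.7 in labelled-null ND, with overlap, and ND6 at 39.9, 27.4 and 18.5 against 307, 32.4 and 30.5. ND6 differed by 2.11 ± 0.88 (adjusted p = 0.243) with all libraries and by 0.14 ± 0.68 without labelled-null ND 1. The 2 mitochondrial ribosomal RNAs had a median difference of 1.62 in that comparison; mt-Rnr2, the large one, had 1573 ± 1953 CPM in labelled-null ND and 448 ± 133 in WT ND (SD, n = 3). When labelled-null ND 1 was left out, mt-Rnr1, the small one, differed by -0.52 ± 0.48.

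On the nuclear side the male ND difference ran through all 5 complexes. Labelled-null and WT libraries did not overlap and labelled-null was lower for 47 of 79 nuclear members, against 12.5% of all genes, and higher for 4, against 10.3%. The count was 64 of 79, against 19.7% of all genes, when labelled-null ND 1 was left out. By complex, without pseudogenes, groups did not overlap and labelled-null was lower for 20 of 35 members of complex I, 2 of 4 of complex II, 6 of 7 of complex III, 7 of 12 of complex IV and 10 of 17 of complex V. The median log2 differences were -0.43, -0.59, -0.63, -0.44 and -0.43, and -0.48, -0.28, -0.46, -0.52 and -0.40 without labelled-null ND 1. In bulk tissue fewer cells of a type and less RNA per cell cannot be told apart. Summed hepatocyte markers, all 8 of 8 detected in each library, moved in the same order: 117500 to 149200 CPM in WT ND against 90970 to 111400 in WT HFD, 43540 to 89000 in labelled-null ND and 71650 to 115900 in labelled-null HFD; their part in the nuclear levels was not tested.

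The first nuclear members described are small subunits. Ndufc1, an accessory subunit of complex I (chr3:51404677-51408988), stood at 48.3, 36.9 and 42.0 CPM in WT ND and at 12.8, 25.7 and 24.5 in labelled-null ND. No labelled-null library reached the WT range, with a log2 difference of -1.005 ± 0.291 (adjusted p = 0.206) and of -0.76 ± 0.23 (adjusted p = 0.140) without labelled-null ND 1. Uqcr11 stood at 144, 118 and 142 CPM in WT ND, 100.5, 79.4 and 67.3 in WT HFD, 83.6, 85.8 and 68.7 in labelled-null ND and 62.1, 59.8 and 97.5 in labelled-null HFD. WT ND was above every other male group, and the difference on ND was -0.76 ± 0.25 (adjusted p = 0.213), or -0.80 ± 0.24 (adjusted p = 0.140) without that library. Atp5e, the epsilon subunit in the stalk of ATP synthase, had the smallest p among lower members once it was left out. It stood at 151, 129 and 125 CPM in WT ND against 118, 74.1 and 57.5, and without labelled-null ND 1 a difference of -1.04 ± 0.29 (adjusted p = 0.125). Cox8a, the liver form of a small complex IV subunit, stood at 205, 204 and 209 CPM in WT ND against 42.5, 149 and 125, with -0.59 ± 0.19 (adjusted p = 0.168) without it.

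The core subunits included 2 with differences smaller than their SE. Without labelled-null ND 1, Ndufs1, the largest iron-sulphur subunit of complex I, differed by 0.08 ± 0.16 and Sdha by -0.01 ± 0.17. Ndufv1, the flavoprotein that takes electrons from NADH, differed by -0.32 ± 0.19. Uqcrfs1, the Rieske protein of complex III, differed by -0.35 ± 0.19, Cox4i1 by -0.62 ± 0.28, Cox5a by -0.49 ± 0.22 and Atp5b by -0.40 ± 0.20. Sdhb, whose promoter holds both motifs, stood at 237, 231 and 221 CPM in WT ND against 192, 193 and 130, and differed by -0.51 ± 0.26. Atp5k stood at 104, 111 and 112 CPM against 39.1, 79.0 and 57.2, without overlap. None of these passed adjustment.

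A few nuclear symbols were higher instead. Atp5sl stood at 41.4, 34.9 and 39.6 CPM in WT ND and at 154, 53.8 and 65.7 in labelled-null ND, without overlap, and differed by 1.23 ± 0.36 (adjusted p = 0.206). Without labelled-null ND 1 it was 0.63 ± 0.21 (adjusted p = 0.169), and without labelled-null ND 2, which leaves the divergent library in, it was called at 1.47 (adjusted p = 0.0436), as was 1 other member, in a fit that called 4.77% of all genes. Ndufa4l2 differed by 2.24 ± 0.76 (adjusted p = 0.213), and by 0.57 ± 0.43 without labelled-null ND 1.

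**Figure D4:**
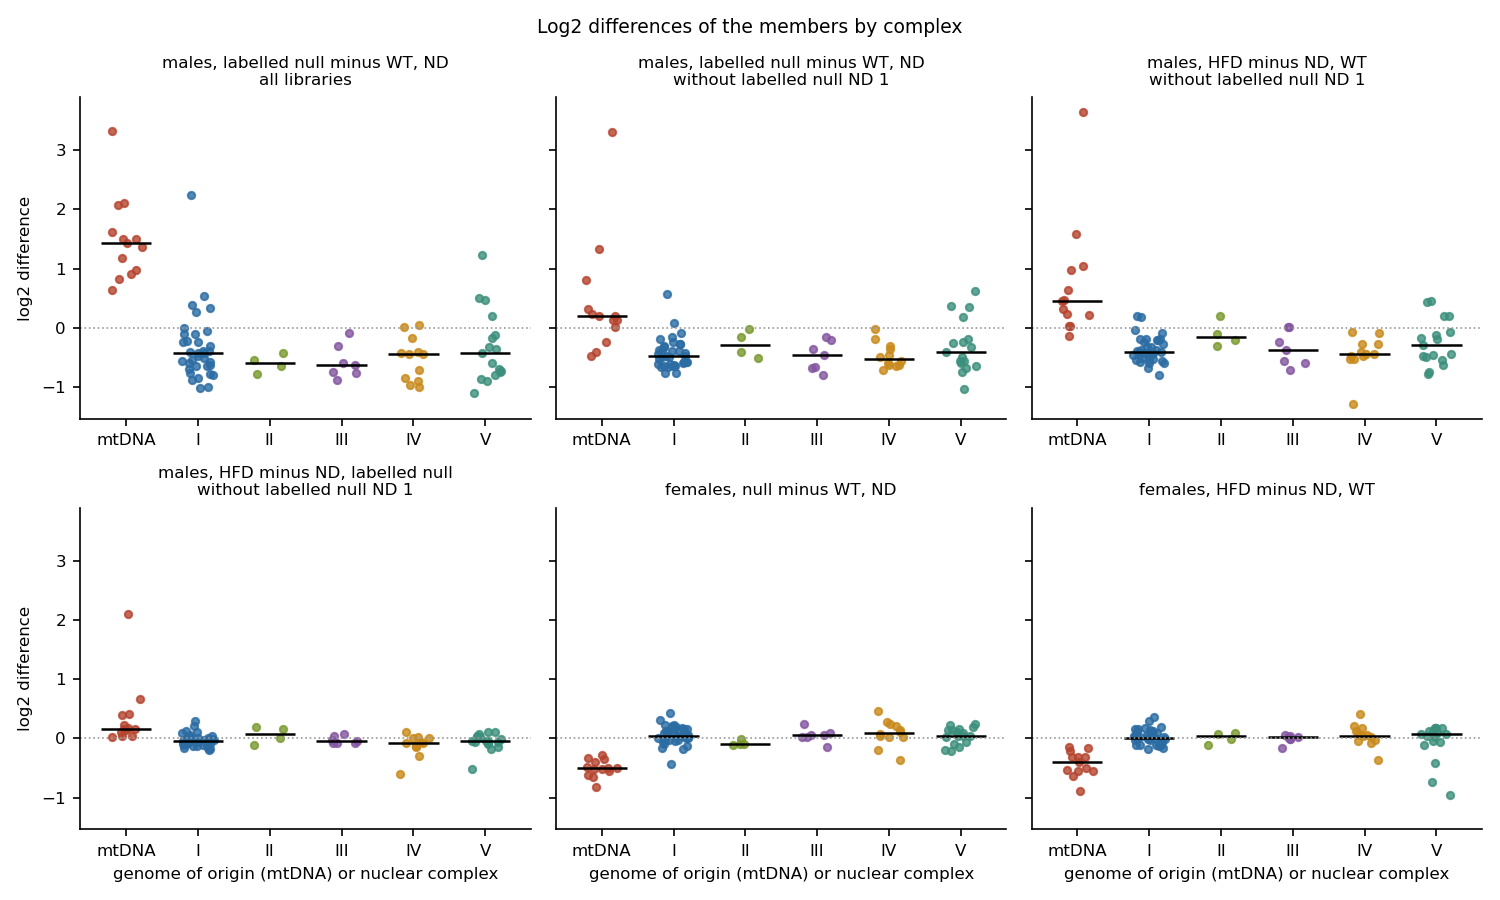
Log2 difference of each member (points) by genome or nuclear complex, with the median as a line, in 6 panels named by comparison; pseudogenes are left out. In males on ND the mitochondrial median is 1.44 with all libraries and 0.20 without labelled-null ND 1, while the medians of all 5 nuclear complexes are below 0 in both. The female panels have mitochondrial medians of -0.51 and -0.39 and nuclear medians near 0.

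HFD against ND in WT males gave a similar picture from the same 3 WT ND libraries, so that the 2 comparisons are not independent of each other. None of 92 members was called (0% of all genes); DESeq2 called 1, ND3, and 0.519% of all genes. Without labelled-null ND 1, which belongs to neither group, again none was called (0.72% of all genes). At an unadjusted p under 0.05, 7 nuclear members were lower (lower in 2.88% of all genes) and 2 mitochondrial members higher (3.61%), and without that library 35 nuclear members were lower (7.54%). The nuclear median was -0.39 with 69 of 79 below 0 (48.1% of all genes), and groups did not overlap with HFD lower for 47 of 79, against 10.1% of all genes. The mitochondrial median was 0.46 with 12 of 13 above 0 (51.9% of all genes), and 0.22 on the 7 genes not wholly inside the copied stretch. Complexes I to V had medians of -0.42, -0.15, -0.37, -0.45 and -0.30, and 12 of 12 complex IV members were below 0. Ndufv3, an accessory subunit of complex I, had the smallest p among lower members when labelled-null ND 1 was left out: 97.7, 84.5 and 77.9 CPM in WT ND against 62.0, 50 and 38.4 in WT HFD, a difference of -0.79 ± 0.22 (adjusted p = 0.114). Uqcr11 differed by -0.71 ± 0.25 (adjusted p = 0.633), and Atp5g1, another c-ring gene, by -0.79 ± 0.38. Sdha and Ndufs1 differed by 0.19 and 0.20.

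Both comparisons can be put as 1 description of WT ND. All 3 male WT ND libraries were above every other male library for 27 of 79 nuclear members, against 3.4% of all genes, and for 44 of 79 when labelled-null ND 1 was left out, against 5.4% of all genes. No mitochondrial member had WT ND above all others, and ND3 had it below all others. WT ND was below all others for 2.51% of all genes, and for 6.74% without labelled-null ND 1.

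**Figure D5:**
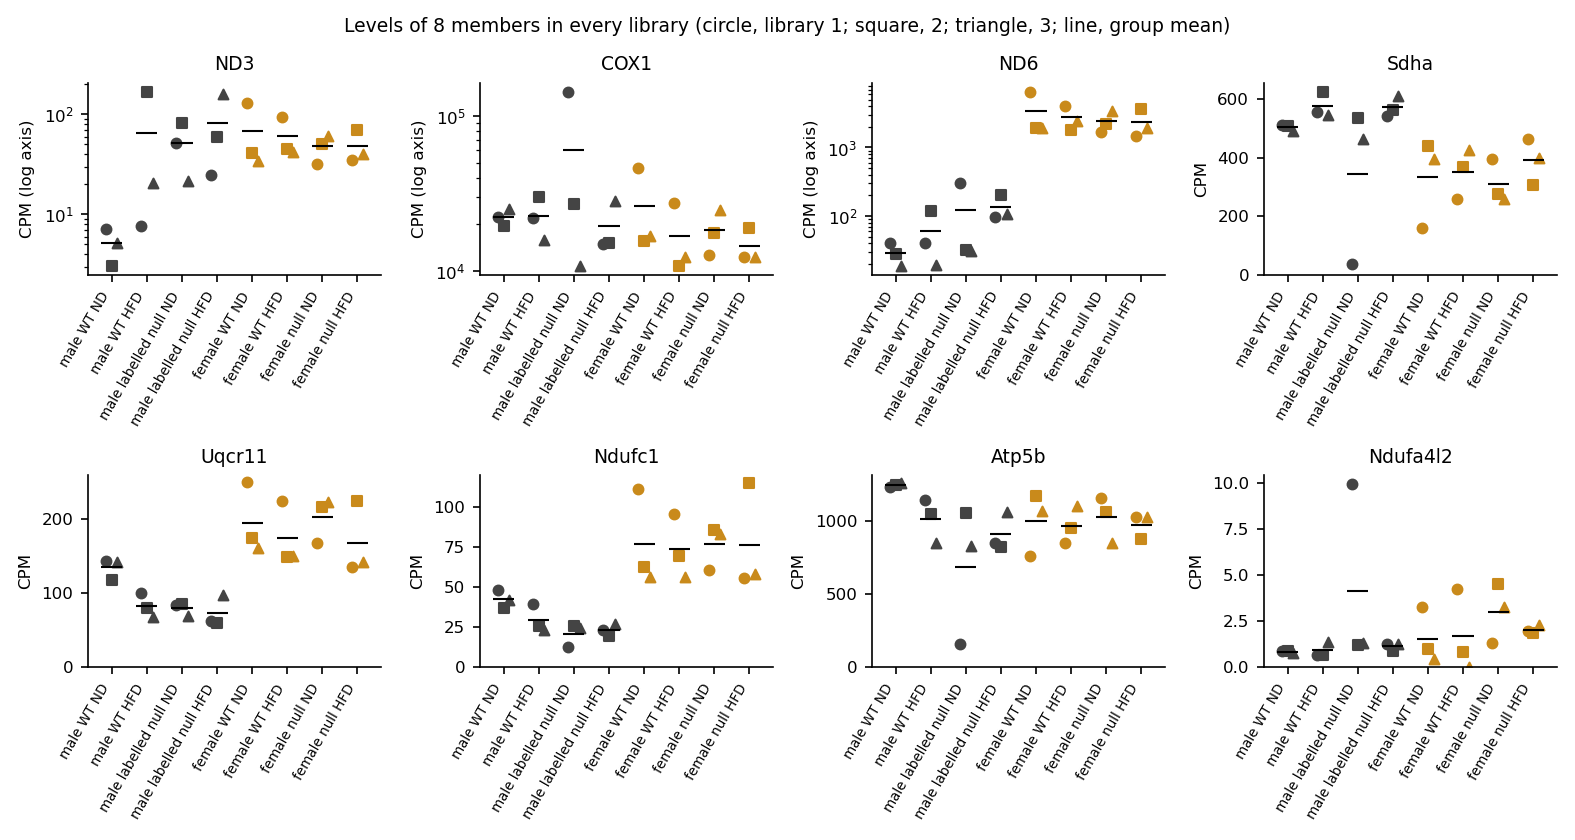
CPM of 8 members in each library (log axis for ND3, COX1 and ND6), with symbols for library 1, 2 and 3 and lines for group means; dark is male and orange female. ND3 in the 3 male WT ND libraries (3.03 to 7.18) lies below all other males, Uqcr11 there lies above them, and Sdha, Atp5b and COX1 show labelled-null ND 1 far from the rest.

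In the remaining male comparisons no member was called by edgeR or DESeq2, and with all libraries the interaction had the medians furthest from 0. On HFD, labelled-null against WT, none of 92 members was called by edgeR (0% of all genes) or DESeq2 (0.132%), and none had an unadjusted p under 0.05 (2.12% of all genes). The mitochondrial and nuclear medians were -0.07 and -0.12, and groups did not overlap with labelled-null lower for 1 of 79 nuclear members, against 3.6% of all genes. For HFD against ND in labelled-null males none was called by edgeR (0% of all genes; 0.0859% without labelled-null ND 1) or DESeq2 (0.755%), with 6 members at an unadjusted p under 0.05 (11.1% of all genes), and 2 without that library (6.46%). The mitochondrial median was -0.65 (-1.355 on the 7 genes not wholly inside the copied stretch) and turned to 0.16 without it, and the nuclear median 0.12 turned to -0.04. The genotype by diet interaction called no member by edgeR (0% of all genes) or DESeq2 (0.121%), with 1 at an unadjusted p under 0.05 (4.65% of all genes). Its mitochondrial median was -1.39, and -0.20 without labelled-null ND 1, its nuclear median was 0.38 and 0.32, and Atp5sl had the smallest p, with -1.57 ± 0.50 (adjusted p = 0.891).

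In females, Cyp2b-null against WT on ND, none of 91 members was called by edgeR (0.127% of all genes) or DESeq2 (0.656%), and 2 had an unadjusted p under 0.05 (6.33% of all genes). The nuclear median was 0.04 with 53 of 78 above 0 (47.4% of all genes), and groups did not overlap and Cyp2b-null was higher for 4 of 78 (5.18% of all genes). Among core subunits Atp5a1 differed by 0.04 (95% interval -0.35 to 0.44), Sdhb by -0.01 (-0.44 to 0.42) and Ndufv1 by 0.20 (-0.18 to 0.58). All 13 mitochondrial members were below 0 (52.6% of all genes), with a median of -0.51. Without WT ND 1 and with no further term, 11 of 13 were above 0, with a median of 0.17.

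The 2 sides of the female libraries bear on the same value. COX2 stood at 421, 173 and 149 CPM in WT ND and at 105, 204 and 199 in Cyp2b-null ND, and CYTB at 32902, 11239 and 10946 CPM against 8168, 11489 and 15456. Within the smaller side the WT library was above both Cyp2b-null ones for each gene, and within the larger side both WT libraries were above the Cyp2b-null one. With a term for the sides, chosen after the data were seen, the 13 differences had a median of -0.72, and COX2 at -0.83 ± 0.16 (adjusted p = 0.0257) and CYTB at -0.85 ± 0.17 (adjusted p = 0.0353) were called lower, with 0.363% of all genes called. Without the term COX2 differed by -0.55 ± 0.47 and CYTB by -0.65 ± 0.46. With the term and without WT ND 1, 13 of 13 were still below 0 (median -0.45), COX2 had -0.66 ± 0.19 and CYTB -0.55 ± 0.17, and neither was called (adjusted p = 0.499 and 0.558; 0.0819% of all genes). The sides come from the same libraries' counts, although not from the members, so these values only describe.

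The other female comparisons had small differences of both genomes. On HFD, Cyp2b-null against WT called no member (0.0169% of all genes), with none at an unadjusted p under 0.05 (2.44%); the mitochondrial median was -0.27 and became 0.17 without WT HFD 1. HFD against ND in WT called none (0.0169%), with 1 at an unadjusted p under 0.05 (3.48%); the mitochondrial median was -0.39 and became 0.28 without WT ND 1. HFD against ND in Cyp2b-null called none (0%), with none at an unadjusted p under 0.05 (4.8%), and medians of -0.17 and -0.08. The female interaction called none (0%), with none at an unadjusted p under 0.05 (2.89%). DESeq2 called no member in any of these, in which it called, in the same order, 0.0169%, 0.161%, 0.0254% and 0.0931% of all genes.

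Cox7a2l, counted with complex IV by its symbol, stood at 41.7, 68.9 and 54.6 CPM in WT ND and at 74.7, 84.4 and 69.1 in Cyp2b-null ND. The groups did not overlap, and the difference was 0.47 ± 0.21 (adjusted p = 0.744). Ndufs1 stood at 70.9, 102 and 98.3 CPM against 87.3, 57.9 and 56.2, a difference of -0.43 ± 0.25 (adjusted p = 0.831), and of -0.28 ± 0.17 with the term for the sides. Sdha stood at 162 to 308 CPM in the 5 libraries of the smaller side and at 369 to 464 in the other 7, so its level followed the sides and not the groups. Atp5g2, a c-ring gene, had the smallest p among lower members for HFD against ND in WT, with -0.96 ± 0.48 at 2.08 to 6.72 CPM.

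The difference between the sexes was tested with edgeR in a joint fit of 24 libraries, for which no DESeq2 fit was made. No member was called for the female minus male effect of genotype on ND (0.0332% of all genes) or on HFD (0.0133%), or of diet in WT (0.00665%) or Cyp2b-null (0%). For genotype on ND, 10 mitochondrial members lower and 16 nuclear members higher had an unadjusted p under 0.05, with 1 nuclear lower, against 11.7% of all genes. For genotype on HFD none had such a p (1.54%), for diet in WT 5 (3.71%) and for diet in Cyp2b-null 2 (4.65%). The median differences for genotype on ND were -1.96 for the mitochondrial and 0.56 for the nuclear members, and -0.61 and 0.55 without male labelled-null ND 1. The smallest p among nuclear members was that of Cox6a1, the liver form of a complex IV subunit, at 1.07 ± 0.37 (adjusted p = 0.337). For diet in WT the medians were -0.76 and 0.43, and Atp5s had the smallest p at -1.16 ± 0.42 (adjusted p = 0.9998).

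Tissue forms of complex IV subunits were mostly under the level for members. Cox7a1, Cox6a2 and Cox8b are the forms of heart and skeletal muscle, and Cox4i2 that of lung. Of the 12 symbols that matched by name and missed the level, 4 are pseudogenes by name. Just above the level were Uqcrh-ps1 (1.66 CPM), Atp5l2-ps (1.67), Ndufa4l2 (1.86) and Cox7a1 (1.97), and just below it Cox6b2 (0.354), Uqcrc1 (0.303), Cox6a2 (0.280) and Ndufs3 (0.262). Female WT HFD 3, the library with the muscle markers, held 10 counts each of Cox6a2 and Cox8b and had 6.18 CPM of Cox7a1, the highest of all libraries. Male labelled-null ND 1 held 8 counts of Cox8b and 6 of Cox4i2. The parts of other tissue in these counts were not tested. Uqcrc1 and Ndufs3, core subunits of complexes III and I, had 3 to 11 counts in each male library and 0 in each female library, which allows up to 3 counts, and Ndufa7 had 1 to 10 counts in males against 82 to 203 in females. In the male counts Uqcrc1 and Ndufs3 had 2 entries each and Ndufa7 had 4, and in the female counts each had 1. No other symbol of the rule had more than 1 entry in males. The cause of the low counts, and the part of these entries in them, was not tested. Ndufa7 was tested in the female and joint fits, and called in none of them.

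Related gene lists were described in the same male comparisons, with all libraries unless stated. No gene of any list was called. Of all genes, 46.3% were below 0 in labelled-null against WT on ND and 48.1% in HFD against ND in WT. The mitochondrial ribosome, which translates the 13 mitochondrial messages, followed the nuclear members: 62 of 75 genes were below 0 in labelled-null against WT on ND (median -0.34), and 65 of 75 in HFD against ND in WT (median -0.21). Groups did not overlap and were lower for 37 and 17 of 75, against 12.5% and 10.1% of all genes. Its gene with the smallest p was Mrps12, at 15.1 ± 3.85 CPM in labelled-null ND and 31.2 ± 2.93 in WT ND (SD, n = 3), a difference of -1.04 ± 0.24 (adjusted p = 0.175). Assembly factors had 34 of 46 below 0 (median -0.31) in the first comparison and 27 of 46 (median -0.09) in the second. Subunits outside the symbol rule, such as Ndufab1 and Cyc1, had 5 of 6 below 0 in both, with medians of -0.47 and -0.37.

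The genes that express mitochondrial DNA and the regulators did not share that direction. For mtDNA expression factors the medians were 0.03 and 0.12, with 17 and 23 of 33 above 0, against 53.7% and 51.9% of all genes. Fastkd1, an RNA-binding protein of mitochondria, differed by 0.91 ± 0.28 on ND (adjusted p = 0.213), and by 0.48 ± 0.16 (adjusted p = 0.174) without labelled-null ND 1. Among 11 regulators the medians were 0.26 and 0.35. Ppargc1b, a PGC-1 coactivator, stood at 35.6 ± 12.3 CPM in labelled-null ND and 16.3 ± 1.62 in WT ND, a difference of 1.13 ± 0.30 (adjusted p = 0.185), and of 1.31 ± 0.26 (adjusted p = 0.0660) without labelled-null ND 1. Sirt1, a deacetylase that acts on PGC-1 alpha, differed by 0.62 ± 0.34 for HFD against ND in WT. In females the ribosome list had medians between 0.00 and 0.08 and the regulators between -0.16 and 0.05 in the 4 comparisons, with the smallest adjusted p at 0.647, that of the assembly factor Atpaf2 (-0.69 ± 0.28).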

How the data were processed

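Per the labels' protocols, liver total RNA of 24 samples was sequenced; the deposited values are raw read counts per gene symbol, 1 table per sex, unnormalized. Per the submitters' processing notes the build was GRCm38.p5 and the tools include edgeR, Subread, GSNAP, Trimmomatic and FastQC. The sources used here do not give settings, the use of strand or the handling of reads that match several places. Groups follow the sample titles. Counts of 1806 duplicated symbols in the male table and 2 in the female table were summed, and 25 symbols turned into dates (at most 0.16% of a library) were not tested. The lowest chi-square per degree of freedom between libraries of a group was 5.56, so none was taken for a repeat. Members and lists were chosen with earlier results of these data known.

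Each sex was fitted with edgeR 4.0.16 (R 4.3.3): 12 libraries, 1 term per group, low-count filter, TMM scaling, robust quasi-likelihood test, Benjamini-Hochberg adjustment over 14873 male or 11830 female genes, call at an adjusted p under 0.05. Sexes were compared in a joint fit of 15043 genes. The fit was tested on simulated data with a smaller spread between libraries than estimated here and with no divergent library. The estimated biological coefficient of variation was 0.34 in males and 0.27 in females, so that test does not cover such a spread. Levels are CPM with TMM factors, and log2 levels used a prior count of 2. The mean CPM for membership and the levels per kb of the mitochondrial genes are exceptions, scaled by library totals alone. P-values reflect only how far these libraries spread, and that spread may be technical. Named were all mitochondrial members, core subunits, isoform families, the member with the smallest p in each direction of a comparison and the gene with the smallest p of each list; Atp5k was named after its values were seen. Alternatives were RLE scaling, scaling on nuclear genes, no filter, DESeq2 1.42.0, a block for the replicate number, only the first entry of a duplicated symbol, the compared groups alone and each library left out, and, added after seeing the data, a term for the female sides. Same-numbered ND and HFD libraries of WT had r over a limit of 0.1 in every pair, but only just in males (0.11 to 0.127). In females r ran from 0.139 to 0.564, the highest for library 1, where both libraries lie on the smaller side of the first component. These values do not establish a pairing. Elsewhere at least 1 pair had r under 0.1. Versions of GENCODE and RefSeq sequences are named beside them.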

Additional observations from a re-analysis of the deposited data

Results flagged for a closer look

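The group mean of the mitochondrial minus nuclear score differed in opposite directions with genotype on ND in the 2 sexes. In males labelled Cyp2b-null it was 1.59 higher than in WT on the log2 scale, with 3 of 3 libraries above the WT mean, and in Cyp2b-null females it was lower, at -0.443, with 3 of 3 below the WT mean. The difference between the sexes in this score was not tested. The male value was 0.74 without labelled-null ND 1, and the female value -0.08 without WT ND 1. Female groups overlapped: Cyp2b-null ND 3 stood at 3.27, above WT ND 2 at 2.99 and WT ND 3 at 2.89. On the 7 mitochondrial genes not wholly inside the copied stretch, the male value was 1.43, and 0.27 without labelled-null ND 1. There the male groups overlapped too, with labelled-null ND 3 at 5.40, below the WT mean of 5.52. The female value on these genes was -0.42.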

How the results depend on the processing

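No member was called in any of the 14 comparisons with all libraries, and under the alternatives members were called in 4 cases. DESeq2 called 3 members for labelled-null against WT on ND in males (ND3, Ndufc1 and Atp5sl; 2.88% of all genes) and 1 for HFD against ND in WT males (ND3; 0.519% of all genes). Leaving out 1 library at a time gave 0 to 2 members for the former (2 without labelled-null ND 2, Atp5sl and Ndufa4l2, with 4.77% of all genes called). The term for the female sides gave 2 for Cyp2b-null against WT on ND (COX2 and CYTB), and 0 when WT ND 1 was also left out. The cause of these changes was not tested. With the replicate number as a block, 0 members were called in each comparison, so that block changed no call, also for HFD against ND in WT. Without labelled-null ND 1 the male differences on ND of COX1, CYTB, ND4 and Ndufs1 changed sign, none of them called in either case. These are not all: further nuclear members changed sign, since more nuclear members were below 0 without that library. The genome score with 1 library left out ran from 0.74 to 2.27 for labelled-null against WT on ND in males, from 0.51 to 1.18 for HFD against ND in WT males, and from -0.65 to -0.08 for Cyp2b-null against WT on ND in females. It crossed 0 in the other 5: from -0.02 to 0.65 for labelled-null against WT on HFD and from -1.115 to 0.42 for HFD against ND in labelled-null males, and in females from -0.26 to 0.03 for Cyp2b-null against WT on HFD, from -0.55 to 0.02 for HFD against ND in WT and from -0.25 to 0.145 in Cyp2b-null. Low depth limits the female values: at 2.01 M to 2.66 M counts a library, members near 1 CPM rest on a few reads each.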
